A study of Mus musculus with 12 samples.

Results

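The matrix metalloproteinases (MMPs), the ADAM and ADAMTS proteases and the tissue inhibitors of metalloproteinases (TIMPs) were followed across 2 culture formats and 2 culture times of mouse mammary epithelial cells. A gene was counted as a member when a symbol on its annotation row was Mmp, Adam, Adamts or Timp followed by a number, with or without a final letter, which gave 78 of the 28427 rows. The rule reads symbols alone. By the known form of the protein, 16 members are secreted MMPs, 7 are membrane-bound MMPs, 32 are ADAMs, 19 are ADAMTS proteases, which are secreted, and 4 are TIMPs. Of the 78 members, 48 passed the filter on low counts and were tested among 13951 genes. These were 11 secreted MMPs, 6 membrane-bound MMPs, 12 ADAMs, 16 ADAMTS proteases and 3 TIMPs. Of the 30 that did not pass, 14 had no count in any library, 13 of them ADAMs and the other Mmp20.

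The data are 12 RNA sequencing libraries of mammary epithelial cells from C57BL/6 mice, 3 in each of 4 groups. The monolayer groups (48M and 96M) were replated on dishes coated with collagen, and the spheroid groups (48S and 96S) were embedded in growth factor-reduced Matrigel, a basement membrane gel. All were kept for 48 h or 96 h in supplemented MEBM, an epithelial medium, with progesterone and prolactin, so no group is free of these hormones. Format and matrix changed together and cannot be told apart, and the medium of the gels was replaced after 48 h of culture. The series calls the replicates biological; the labels do not say whether they came from separate animals, so the p-values measure the spread between these cultures. Total counts were between 7674105 and 13554497 per library, at which 3 counts, the limit that a count of 0 allows, correspond to between 0.223 and 0.376 CPM, read counts scaled to library size.

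MMPs are zinc-dependent endopeptidases that cut collagens, laminins and other matrix proteins. Most are released as inactive proenzymes, while the membrane-bound members act at the cell surface. ADAMs are transmembrane proteins, and those with a working active site release the outer domains of growth factors and receptors. ADAMTS proteases bind the matrix through thrombospondin repeats and cut proteoglycans or trim procollagens. TIMPs are secreted proteins that block the active site of these enzymes, and in the mammary gland the balance of proteases and TIMPs is known for its part in duct branching and in the remodelling of the gland after lactation.

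Many of the secreted MMP genes lie side by side. On chromosome 9 Mmp13, Mmp12, Mmp1b, Mmp3, Mmp1a, Mmp10, Mmp8, Mmp27, Mmp20 and Mmp7 are consecutive protein-coding genes, in that order. The 250 bases before each start site, taken from RefSeq's annotation of GRCm38.p6, were searched on both strands for the AP-1 letters TGANTCA, N being any base. A window was found for 48 of the 78 members, which do not include Mmp2, Mmp9 and Mmp19. The letters were found in 8 of 13 secreted MMPs (61.5%), against 2113 of 27025 genes with a window (7.82%), and in 5 of the 32 tested members with a window (15.6%). All 8 of these secreted MMPs lie in the chromosome 9 run, so the share describes neighbouring, related genes and not the class at large. Among them Mmp1a, Mmp1b, Mmp7 and Mmp20 were not tested for expression. The AP-1 letters were found in 3 of 16 ADAMs (18.8%) and in none of 10 ADAMTS proteases, 5 membrane-bound MMPs and 4 TIMPs with a window. The ETS letters AGGAAG, which do not overlap that motif, were found in 7 of 13 secreted MMPs (53.8%) against 32.3% of genes. Within the chromosome 9 run, Mmp8 and Mmp27 had no AP-1 match in this window. A match is a description of letters and not of a site in use. The stretches below show, for 4 tested genes of the run and for Mmp1b, where the AP-1 letters (capitals) sit in the 60 bases printed 5′ to 3′ on the gene's strand.
Mmp13: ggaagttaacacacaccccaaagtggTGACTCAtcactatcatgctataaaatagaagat
Mmp12: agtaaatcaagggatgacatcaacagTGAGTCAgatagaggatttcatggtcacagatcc
Mmp1b: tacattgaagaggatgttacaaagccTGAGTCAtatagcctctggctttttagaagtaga
Mmp3: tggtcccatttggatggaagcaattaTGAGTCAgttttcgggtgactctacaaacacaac
Mmp10: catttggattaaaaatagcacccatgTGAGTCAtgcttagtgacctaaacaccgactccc
These stretches are chr9:7272453-7272512 on the plus strand, chr9:7347304-7347363 on the plus strand, chr9:7388086-7388145 on the minus strand, chr9:7445750-7445809 on the plus strand and chr9:7502253-7502312 on the plus strand. Counted from the start site, the capitals begin at base -35 in Mmp13, -44 in Mmp12, -93 in Mmp1b, -46 in Mmp3 and -63 in Mmp10.

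Spheroids and monolayers differed in both directions at 48 h, and mostly downward in spheroids at 96 h. Differences were tested with edgeR's quasi-likelihood test and called at an adjusted p of 0.05, with p-values adjusted over all tested genes by the Benjamini-Hochberg method. At 48 h, 14 of the 48 tested members were higher and 19 lower in spheroids, against 31.6% higher and 26.4% lower of all tested genes. At 96 h, 11 were higher and 29 lower, against 37.3% higher and 36.5% lower of all tested genes. The median log2 fold change of the tested members was -0.23 at 48 h and -0.58 at 96 h, beside 0.05 and -0.00 for all tested genes. Past a 2-fold difference, 8 members were higher and 13 lower at 48 h, against 9.53% and 8.38% of genes, and 5 were higher and 21 lower at 96 h, against 12.7% and 17.1% of genes.

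The 5 classes did not share this pattern. Among secreted MMPs 4 were higher and 4 lower at 48 h, while 1 was higher and 8 were lower at 96 h, with medians of -0.20 and -2.30. Among ADAMTS proteases 4 were higher and 9 lower at 48 h, and 3 higher and 10 lower at 96 h. Membrane-bound MMPs were split evenly, with 2 higher and 2 lower of 6 tested at each time, and their median at 96 h was 0.37. ADAMs had 3 higher and 4 lower of 12 at 48 h, and 4 higher and 7 lower at 96 h. Of the 3 tested TIMPs, 1 was higher and none lower at 48 h, and 1 was higher and 2 were lower at 96 h. Pooled by form, the 27 tested secreted proteases had a median of -1.25 at 96 h and the 18 tested membrane-bound proteases a median of -0.30. These class values are descriptions of the members that passed the filter on low counts, and the difference between classes was not tested. Mmp27, Mmp25, Adam11 and Adamts16 each passed that filter through the group where they were highest (48S, 96S, 96M and 48M in that order). Their differences involving that group are therefore partly set by the filter.

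**Figure D1:**
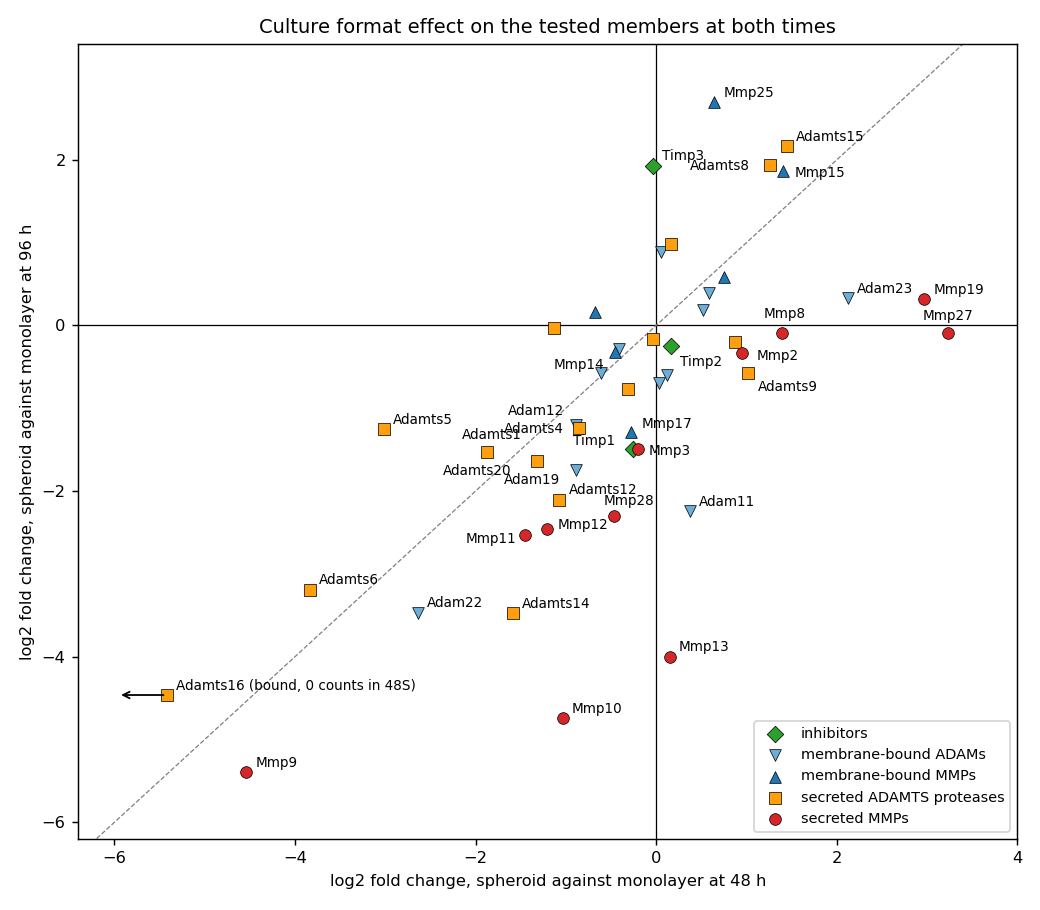
Each point is a tested member, with its log2 fold change in spheroids against monolayers at 48 h on the x axis and at 96 h on the y axis, by class, and the dashed line marks equal values. The tested secreted MMPs all lie below the dashed line in this fit, although the interaction term of Mmp9, its value at 96 h minus that at 48 h, turned positive in limma on log2(FPKM + 1). Mmp27 among them passed the filter on low counts through the 48 h spheroids, where it was highest. Adamts16 had no count in the 48 h spheroids and is drawn at its bound of -5.42 on the x axis.

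Across times, 7 members were higher in spheroids at both times (Adam10, Adam17, Adam23, Adamts15, Adamts8, Mmp15 and Mmp19) and 17 were lower at both. Mmp2, Timp2 and Adamts9 were higher at 48 h and lower at 96 h. The share of all tested genes with the same joint calls was not computed. These counts therefore describe the members and do not set them apart from other genes. To test whether the effect of format differed between times, the log2 fold change at 96 h was set against that at 48 h in an interaction term. The term passed for 33 members, against 53.3% of all tested genes. It was above 0 for 10 members and below 0 for 23, against 26.9% and 26.4% of all tested genes. It was below 0 for all 11 tested secreted MMPs, with values from -4.15 to -0.86 and a median of -1.48, beside -0.02 for all tested genes, although the sign for Mmp9 turned in limma. Mmp27 passed the filter on low counts through the 48 h spheroids (32, 16 and 26 counts), with at most 10 counts in any other library. Its sign was thus tied to the filter and adds nothing to this count. For Mmp9, whose value was the nearest to 0, the term was 0.15 and did not pass (adjusted p = 0.485) in limma on log2(FPKM + 1), and without the first 96 h spheroid library it was -0.70 (adjusted p = 0.0541), in a range over the alternatives of 0.00111 to 0.485. For Mmp28 the call was lost when the third 48 h spheroid, the third 96 h monolayer, or the first or second 96 h spheroid library was left out, at adjusted p-values of up to 0.0677, in a range of 0.00932 to 0.0677.

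Among secreted MMPs the gelatinase Mmp9, which cuts denatured collagen and type IV collagen of basement membranes, had the widest gap between formats. It was measured at 335, 317 and 338 CPM in the 48 h monolayers, 16.4, 14.7 and 11.2 CPM in the 48 h spheroids, 60.2, 74.6 and 82.8 CPM in the 96 h monolayers and 1.30, 1.56 and 2.23 CPM in the 96 h spheroids. Every spheroid library lay below every monolayer library of either time. The level in spheroids was 23.3-fold lower at 48 h (log2 -4.54, SE 0.13, adjusted p = 1.22e-15) and 42.2-fold lower at 96 h (log2 -5.40, SE 0.17, adjusted p = 4.77e-15). It also fell with time in both formats, 4.56-fold in monolayers and 8.27-fold in spheroids.

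Mmp2, the other gelatinase, behaved differently. Its levels were 374, 365 and 408 CPM in 48 h monolayers, 691, 777 and 751 CPM in 48 h spheroids, 293, 318 and 295 CPM in 96 h monolayers and 242, 235 and 243 CPM in 96 h spheroids. The 48 h spheroids were the highest of the 4 groups and the 96 h spheroids the lowest, with no overlap. In spheroids Mmp2 was 1.93-fold higher at 48 h (log2 0.95, SE 0.07, adjusted p = 6.43e-10) and 1.26-fold lower at 96 h (log2 -0.33, SE 0.07, adjusted p = 2.50e-04). The interaction was -1.28 (adjusted p = 2.92e-09). Per transcript length, Mmp2 was the most abundant secreted MMP in each group, with 117 ± 5.49, 243 ± 14.2, 104 ± 3.73 and 78.1 ± 1.27 FPKM, fragments scaled to transcript length and library size (mean ± SD, n = 3), in 48M, 48S, 96M and 96S, although at 48 h in monolayers Mmp3 (116 ± 13.2 FPKM) was within its spread.

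Mmp19, a secreted MMP that cuts basement membrane proteins, was the tested secreted MMP that was higher in spheroids at both times. It stood at 27.1, 23.7 and 26.1 CPM in 48 h monolayers, 202, 206 and 193 CPM in 48 h spheroids, 119.6, 103 and 101 CPM in 96 h monolayers and 125, 141 and 137 CPM in 96 h spheroids. The 48 h monolayers were far below the other groups. Spheroids were 7.83-fold higher at 48 h (log2 2.97, SE 0.08, adjusted p = 1.57e-15) and 1.25-fold higher at 96 h (log2 0.32, SE 0.07, adjusted p = 7.21e-04). The gap narrowed from both sides, as Mmp19 rose 4.22-fold with time in monolayers and fell 1.49-fold in spheroids. In the 96 h spheroids, where Mmp9 was at 0.533 FPKM, Mmp19 at 40.2 FPKM was second to Mmp2 and made up 25.8% of the summed secreted MMP level.

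Of the tested genes of the chromosome 9 run, Mmp10, Mmp12 and Mmp13 rose with time in monolayers, Mmp3 fell, and Mmp8 and Mmp27 did not pass the test. Collagenase 3, Mmp13, which cuts fibrillar collagen, was measured at 9.41, 10.9 and 12.1 CPM in 48 h monolayers, 14.8, 11.1 and 9.91 CPM in 48 h spheroids, 66.8, 45.97 and 43.1 CPM in 96 h monolayers and 3.36, 2.96 and 3.42 CPM in 96 h spheroids. The 48 h groups overlapped, and at 96 h the monolayers were the highest group and the spheroids the lowest. Mmp13 did not pass the test at 48 h (log2 0.15, SE 0.19, adjusted p = 0.503) and was 16.01-fold lower in spheroids at 96 h (log2 -4.0, SE 0.19, adjusted p = 1.07e-12). In monolayers it rose 4.83-fold with time and in spheroids it fell 3.69-fold.

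The stromelysin Mmp10, an enzyme of broad matrix specificity, showed the same order at 96 h. Its libraries gave 12.2, 16.4 and 17.3 CPM in 48 h monolayers, 8.71, 5.79 and 7.79 CPM in 48 h spheroids, 33.9, 25.8 and 21.7 CPM in 96 h monolayers and 0.994, 0.823 and 1.19 CPM in 96 h spheroids. Spheroids were 2.05-fold lower at 48 h (log2 -1.03, SE 0.19, adjusted p = 1.28e-04) and 26.8-fold lower at 96 h (log2 -4.74, SE 0.24, adjusted p = 2.80e-12). Mmp3, the related stromelysin 1, was far more abundant, at 195, 222 and 253 CPM in 48 h monolayers, 207, 184 and 190.01 CPM in 48 h spheroids, 200.3, 141 and 115 CPM in 96 h monolayers and 49.4, 58.3 and 54.7 CPM in 96 h spheroids. Its 48 h groups overlapped and did not pass the test (log2 -0.20, SE 0.14, adjusted p = 0.219), while spheroids were 2.82-fold lower at 96 h (log2 -1.50, SE 0.15, adjusted p = 3.90e-08). The first 96 h monolayer library was the highest of its group for Mmp3, Mmp10 and Mmp13 alike. Mmp3 and Mmp10 have similar sequences, so the division of reads between them is uncertain.

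Mmp12, known as macrophage elastase, was lower in spheroids at both times. It was at 14.2, 13.7 and 11.6 CPM in 48 h monolayers, 4.83, 6.37 and 6.01 CPM in 48 h spheroids, 20.6, 20.04 and 21.6 CPM in 96 h monolayers and 4.43, 3.70 and 3.19 CPM in 96 h spheroids. The difference was 2.31-fold at 48 h and 5.49-fold at 96 h (log2 -2.46, SE 0.14, adjusted p = 1.28e-11), and at neither time did the formats overlap. Stromelysin 3, Mmp11, which lies outside the run, had the same form, with 24.2, 22.2 and 21.8 CPM in 48 h monolayers, 7.10, 9.96 and 8.01 CPM in 48 h spheroids, 34.96, 37.1 and 31.3 CPM in 96 h monolayers and 5.73, 6.17 and 5.87 CPM in 96 h spheroids. It was 2.74-fold lower in spheroids at 48 h and 5.79-fold lower at 96 h (log2 -2.53, SE 0.12, adjusted p = 6.16e-13). Both genes rose with time in monolayers, 1.58-fold for Mmp12 and 1.51-fold for Mmp11.

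The neighbours Mmp8, the neutrophil collagenase, and Mmp27 were higher in spheroids at 48 h and did not pass the test at 96 h. Mmp8 was measured at 2.06, 1.08 and 1.61 CPM in 48 h monolayers, 3.97, 4.63 and 3.78 CPM in 48 h spheroids, 1.12, 1.002 and 1.85 CPM in 96 h monolayers and 1.30, 1.48 and 1.04 CPM in 96 h spheroids. Mmp27 was measured at 0, 0.415 and 0.358 CPM in 48 h monolayers, 3.03, 1.85 and 2.89 CPM in 48 h spheroids, 0.400, 0.877 and 0.706 CPM in 96 h monolayers and 0.765, 0.741 and 0.297 CPM in 96 h spheroids. For both genes the 48 h spheroids stood above the 3 other groups, which overlapped one another. The difference at 48 h was 2.62-fold for Mmp8 (log2 1.39, SE 0.27, adjusted p = 2.61e-04) and 9.38-fold for Mmp27 (log2 3.23, SE 0.50, adjusted p = 2.36e-05), the latter resting on monolayer values near or under the floor of 3 counts. Mmp28, or epilysin, an MMP known from epithelia, was low throughout, at 0.537 to 1.33 CPM in 48 h monolayers, 0.579 to 0.891 CPM in 48 h spheroids, 1.36 to 1.94 CPM in 96 h monolayers and 0.153 to 0.520 CPM in 96 h spheroids. It did not pass the test at 48 h and was 4.92-fold lower in spheroids at 96 h (log2 -2.30, SE 0.44, adjusted p = 1.41e-04), with a log2 value of -2.91 without the third 96 h spheroid library.

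Of the untested secreted MMPs, Mmp1b had 19 counts in the 48 h monolayers against 1 in the 48 h spheroids, and 21 against 0 at 96 h. At 96 h its level in spheroids was 8.51-fold lower when 3 counts over the group were taken as the floor. This value allows for no counting error in the monolayers. Mmp1a and Mmp1b are related genes, and whether reads matching both were counted for either was not tested. Mmp7, or matrilysin, had 17 counts over the 12 libraries, 12 of them in the 96 h spheroids.

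**Figure D2:**
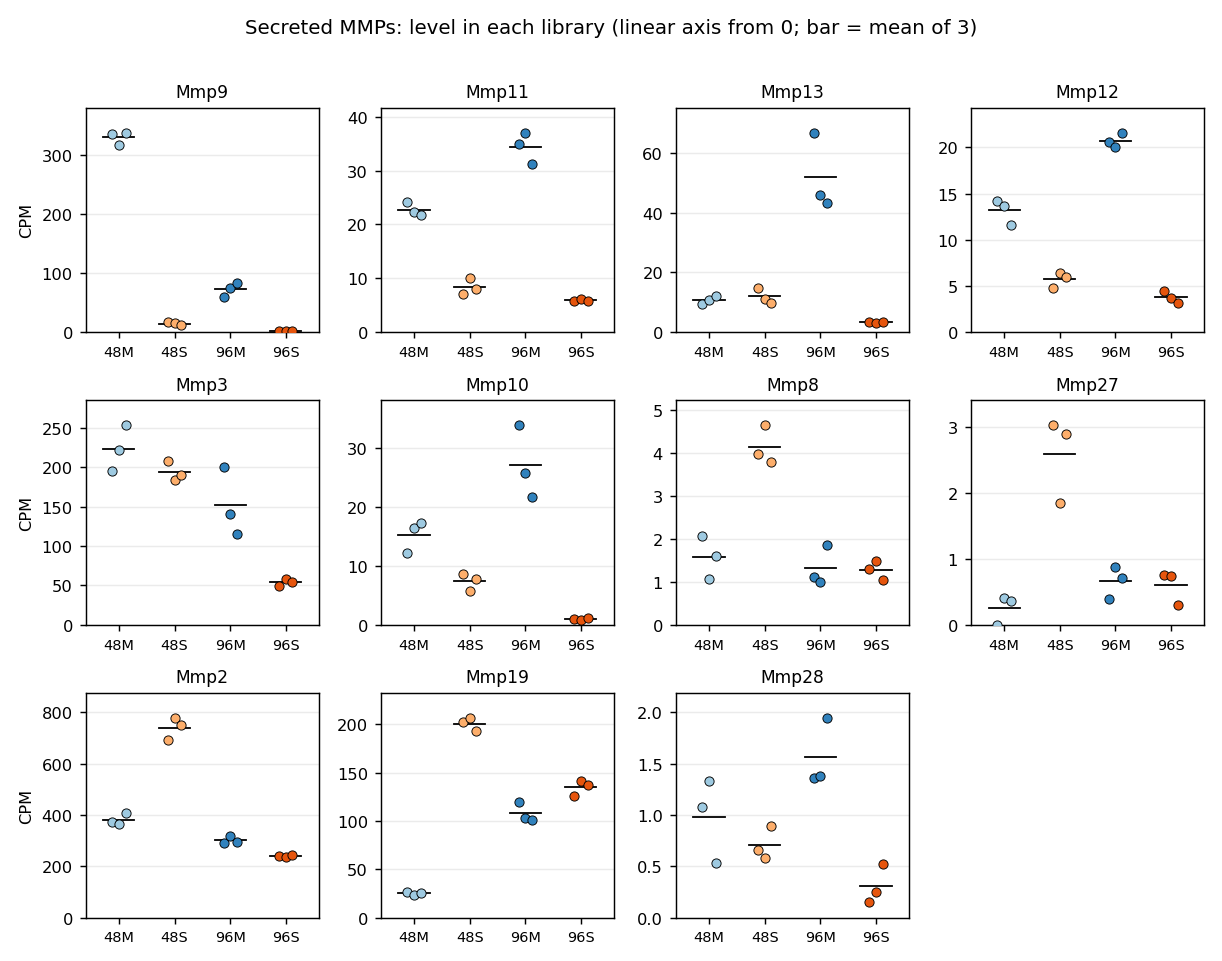
Each panel shows a tested secreted MMP, with the level in CPM in every library on a linear y axis from 0 and a bar at the mean of the 3 libraries of a group. Mmp9 is low in both spheroid groups, Mmp19, Mmp2, Mmp8 and Mmp27 peak in the 48 h spheroids, and Mmp10, Mmp11, Mmp12 and Mmp13 peak in the 96 h monolayers.

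With time, secreted MMPs moved one way in spheroids and both ways in monolayers. Between 48 h and 96 h in spheroids 10 of the 11 tested secreted MMPs fell and none rose, against 20.5% lower and 19.3% higher of all tested genes, with a median of -1.69. Mmp27, among those that fell, passed the filter on low counts through the 48 h spheroids, so its fall is tied to the filter. The fall of Mmp11 was lost without the second 48 h spheroid library (adjusted p = 0.0731, in a range of 0.00454 to 0.0731) and that of Mmp12 without the third 96 h spheroid library (0.0502, in a range of 0.00540 to 0.0502). In monolayers 5 rose and 3 fell, against 30.1% and 31.3% of all tested genes, with a median of 0.66. Over all 48 tested members, 5 rose and 27 fell with time in spheroids, while 11 rose and 25 fell in monolayers. The 5 became 3 without the second 48 h spheroid or the third 96 h spheroid library. In monolayers the rising share of these calls was 30.6%, and it was 42.4% (14 rising and 19 falling) with limma on log2(FPKM + 1), which shifted the median of all genes by 0.12.

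Among membrane-bound MMPs, Mmp14, which activates the proenzyme of Mmp2 at the cell surface, made up most of the class. It held between 82.9% and 94.5% of the summed FPKM of membrane-bound MMPs in each group. Its levels were 549.7, 547 and 644 CPM in 48 h monolayers, 398, 448 and 420.3 CPM in 48 h spheroids, 425, 429 and 427 CPM in 96 h monolayers and 317, 354 and 353 CPM in 96 h spheroids. The formats did not overlap at either time, and the gap was small, with spheroids 1.38-fold lower at 48 h (log2 -0.46, SE 0.07, adjusted p = 3.51e-05) and 1.25-fold lower at 96 h (log2 -0.32, SE 0.07, adjusted p = 7.48e-04). Mmp14 also fell with time in both formats. Like Adam8, Adam10, Adam17 and Adamts3 below, it was chosen for mention after its values were seen.

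Mmp15, a transmembrane relative of Mmp14, went the other way. It was at 25.8, 25.6 and 22.5 CPM in 48 h monolayers, 55.1, 69.7 and 72.02 CPM in 48 h spheroids, 25.6, 28.8 and 30.2 CPM in 96 h monolayers and 96.6, 109 and 101 CPM in 96 h spheroids. Both spheroid groups lay above both monolayer groups. The difference was 2.66-fold at 48 h (log2 1.41, SE 0.10, adjusted p = 8.55e-10) and 3.64-fold at 96 h (log2 1.86, SE 0.10, adjusted p = 4.34e-12). Its share of the summed membrane-bound MMP level was 2.40% and 8.22% in monolayers and spheroids at 48 h and 3.75% and 14.96% at 96 h. The MMPs held by a lipid anchor were low. Mmp25 was at 0.0800, 0.501 and 0.0882 CPM in 96 h monolayers and 1.53, 1.40 and 0.965 CPM in 96 h spheroids, a 6.47-fold higher level in spheroids (log2 2.69, SE 0.59, adjusted p = 4.61e-04), after overlapping values and no call at 48 h. The monolayer values rest on 1, 4 and 1 counts, and without the second 96 h monolayer library the log2 value was 3.77. Mmp25 passed the filter on low counts through the 96 h spheroids, so this difference is tied to the filter. Mmp17 was at 1.12, 1.75 and 1.41 CPM in 96 h monolayers and 0.459, 0.247 and 0.965 CPM in 96 h spheroids, a 2.44-fold lower level (log2 -1.28, SE 0.39, adjusted p = 0.00664), also with no call at 48 h. Without the third 96 h spheroid library its log2 value was -1.94. Mmp23 was lower in spheroids and Mmp24 higher at 48 h, and neither passed the test at 96 h. Mmp24 did pass at 96 h with no filter on low counts (adjusted p = 0.0427) and without the second or the third 48 h spheroid or the first 96 h spheroid library, at adjusted p-values of 0.0440, 0.0341 and 0.0300, in a range of 0.0300 to 0.236.

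Among ADAMs the sheddases Adam10, which cuts Notch receptors and cadherins, and Adam17, which frees tumour necrosis factor and ligands of the EGF receptor, were higher in spheroids at 48 h. Adam10 was at 216, 218 and 213 CPM in 48 h monolayers, 346, 290.1 and 335 CPM in 48 h spheroids, 186, 180.1 and 191 CPM in 96 h monolayers and 245, 239 and 246 CPM in 96 h spheroids. It was 1.50-fold higher in spheroids at 48 h (log2 0.59, SE 0.07, adjusted p = 4.76e-07) and 1.31-fold higher at 96 h (log2 0.39, SE 0.07, adjusted p = 4.25e-05). Adam17 was at 111, 114 and 117 CPM in 48 h monolayers, 172, 155 and 164 CPM in 48 h spheroids, 186, 176 and 149.8 CPM in 96 h monolayers and 190.1, 189 and 203 CPM in 96 h spheroids. Its difference was 1.43-fold at 48 h (log2 0.52, SE 0.08, adjusted p = 1.08e-05) and 1.14-fold at 96 h (log2 0.19, SE 0.07, adjusted p = 0.0310). The call at 96 h was lost under 8 of 21 alternatives, among them upper-quartile scaling (adjusted p = 0.282) and leaving out the third 96 h monolayer library (0.209) or the third 96 h spheroid library (0.121), in a range over the alternatives of 0.00825 to 0.282.

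Adam12 and Adam19, catalytic ADAMs known from muscle and heart development, were lower in spheroids at both times. Adam12 was at 595, 539 and 429 CPM in 48 h monolayers, 286, 267 and 294 CPM in 48 h spheroids, 262, 309.9 and 341 CPM in 96 h monolayers and 141, 128 and 127 CPM in 96 h spheroids. Spheroids were 1.85-fold lower at 48 h and 2.31-fold lower at 96 h (log2 -1.21, SE 0.11, adjusted p = 9.61e-09). Adam19 was at 102, 93.7 and 75.9 CPM in 48 h monolayers, 50.3, 44.7 and 51.5 CPM in 48 h spheroids, 43.4, 45.8 and 52.03 CPM in 96 h monolayers and 15.3, 13.3 and 13.6 CPM in 96 h spheroids. Its gap widened from 1.85-fold at 48 h to 3.34-fold at 96 h, with an interaction of -0.86 (adjusted p = 1.26e-04). For both genes the 48 h monolayers were the highest group and the 96 h spheroids the lowest. Per transcript length, Adam12 led the ADAMs in 48 h monolayers with 65.7 ± 9.88 FPKM, close to Adam9 with 61.7 ± 4.01 FPKM, and Adam10 led in 48 h spheroids with 70.2 ± 6.61 FPKM.

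Adam11, Adam22 and Adam23 lack a working active site and are known as adhesion proteins of neurons, and they differed from one another here. Adam23 was at 19.9, 17.1 and 19.4 CPM in 48 h monolayers, 79.02, 81.7 and 85.2 CPM in 48 h spheroids, 11.2, 14.7 and 12.8 CPM in 96 h monolayers and 16.6, 15.2 and 16.04 CPM in 96 h spheroids. The 48 h spheroids stood far above the other groups, with a difference of 4.36-fold at 48 h (log2 2.13, SE 0.09, adjusted p = 2.58e-13) and 1.25-fold at 96 h (log2 0.33, SE 0.10, adjusted p = 0.00839). The call at 96 h was lost with upper-quartile scaling (adjusted p = 0.0505), in limma on log2(FPKM + 1) (0.549) and without the first 96 h monolayer library (0.0745), in a range of 0.00299 to 0.549. Adam22 was at 3.53, 1.82 and 2.86 CPM in 48 h monolayers, 0.189, 0.579 and 0.557 CPM in 48 h spheroids, 2.0002, 1.002 and 1.50 CPM in 96 h monolayers and 0, 0.247 and 0.149 CPM in 96 h spheroids. It was lower in spheroids at 48 h (log2 -2.63, SE 0.46, adjusted p = 8.81e-05) and at 96 h (log2 -3.47, SE 0.59, adjusted p = 3.79e-05), with the 96 h spheroids at or near the floor of 3 counts, and limma on log2(FPKM + 1) did not call it at 96 h (adjusted p = 0.127, in a range of 2.22e-07 to 0.127). Without the second 96 h spheroid library its log2 value at 96 h was -4.17. The rows of Adam22 and Adam33 carry 2 symbols each. Adam11 was at 0.686, 0.581 and 0.626 CPM in 48 h monolayers, 0.757, 0.811 and 0.891 CPM in 48 h spheroids, 2.80, 3.26 and 2.56 CPM in 96 h monolayers and 0.841, 0.411 and 0.520 CPM in 96 h spheroids. The 96 h monolayers were the highest of the 4 groups, and spheroids were 4.72-fold lower at 96 h (log2 -2.24, SE 0.30, adjusted p = 1.93e-06). Libraries of the other groups held 5 to 11 counts of Adam11 each. It passed the filter on low counts through the 96 h monolayers, so this difference is tied to the filter.

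Adam8, a catalytic ADAM known from leukocytes, fell with time in both formats and more so in monolayers. It was at 84.4, 79.5 and 77.5 CPM in 48 h monolayers, 81.4, 87.2 and 82.6 CPM in 48 h spheroids, 22.96, 23.5 and 22.8 CPM in 96 h monolayers and 44.9, 44.3 and 39.4 CPM in 96 h spheroids. The 48 h groups overlapped, and at 96 h spheroids were 1.86-fold higher (log2 0.89, SE 0.08, adjusted p = 4.42e-09). Of the other tested ADAMs, Adam9 was lower in spheroids at both times, Adam15 and Adam33 were lower at 96 h, and Adam1a was called at neither time. Adam33 lost its 96 h call when any of 3 libraries was left out (the first 96 h monolayer, the second or the third 96 h spheroid), at adjusted p-values of 0.0740, 0.0730 and 0.0681, in a range of 0.00607 to 0.0740.

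**Figure D3:**
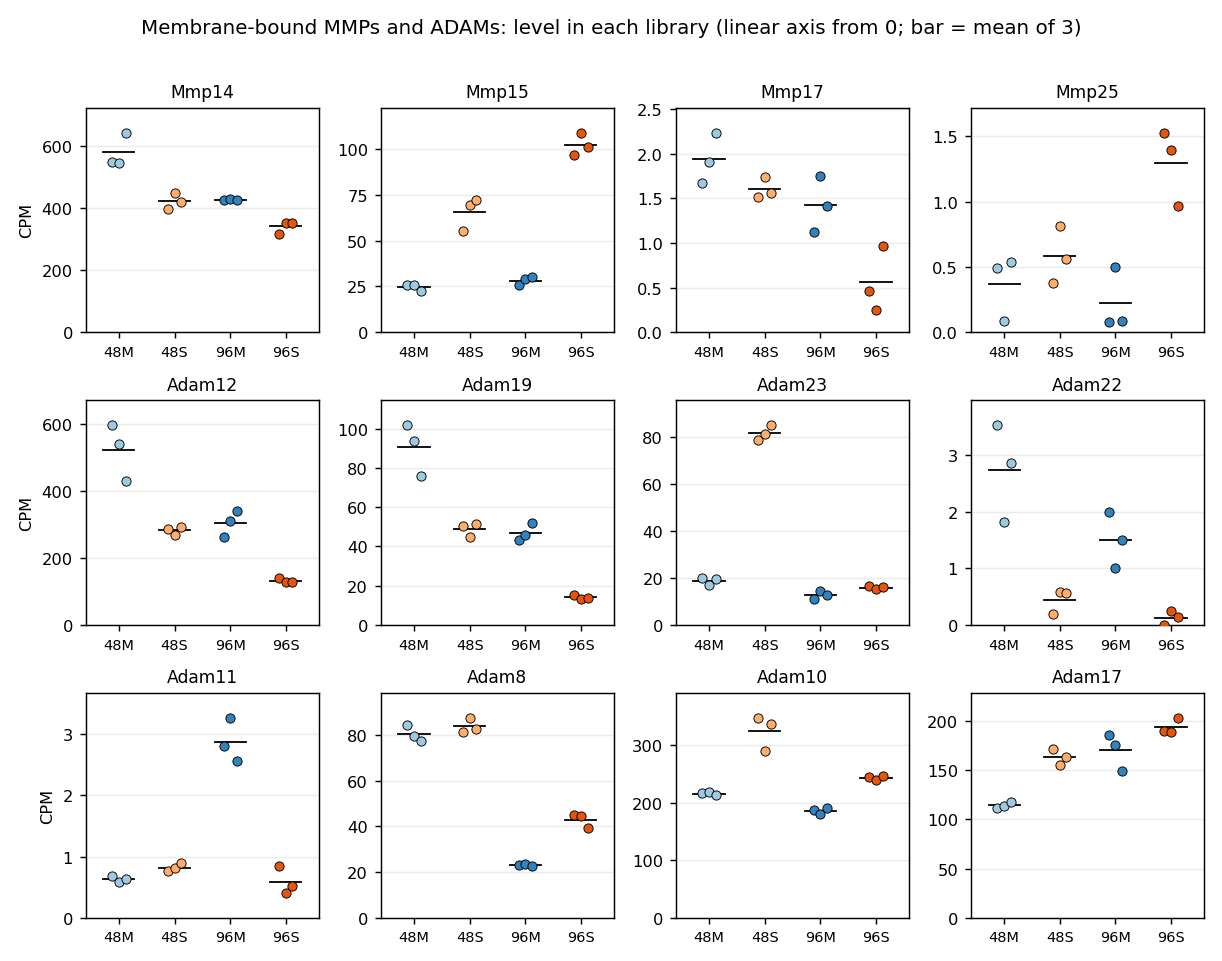
Panels show membrane-bound MMPs and ADAMs, with the level in CPM in every library on a linear y axis from 0 and a bar at the mean of 3. Mmp15 is higher in both spheroid groups, Adam23 peaks in the 48 h spheroids, and Adam12 and Adam19 are highest in the 48 h monolayers.

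The ADAMTS proteases that cut the proteoglycans aggrecan and versican were split by gene. Adamts1, the most abundant ADAMTS gene per transcript length in each group, was at 375, 332 and 325 CPM in 48 h monolayers, 88.95, 96.2 and 96.6 CPM in 48 h spheroids, 282, 307 and 318 CPM in 96 h monolayers and 105, 103 and 106 CPM in 96 h spheroids. Spheroids were 3.66-fold lower at 48 h (log2 -1.87, SE 0.07, adjusted p = 1.20e-13) and 2.88-fold lower at 96 h (log2 -1.53, SE 0.07, adjusted p = 8.86e-13), with no overlap. Its share of the summed ADAMTS level was 51.8% and 57.4% in the 48 h and 96 h monolayers and 25.7% and 31.9% in the spheroids. Adamts5, its neighbour on chromosome 16, was at 69.03, 59.1 and 60.3 CPM in 48 h monolayers, 9.08, 8.45 and 5.57 CPM in 48 h spheroids, 40.2, 46.8 and 50.98 CPM in 96 h monolayers and 18.4, 17.4 and 21.9 CPM in 96 h spheroids. It was 8.08-fold lower in spheroids at 48 h (log2 -3.01, SE 0.14, adjusted p = 1.70e-12) and 2.38-fold lower at 96 h (log2 -1.25, SE 0.12, adjusted p = 2.80e-08). It rose with time in spheroids (2.49-fold, log2 1.31, SE 0.16, adjusted p = 1.88e-06). Adamts4 was at 20.1, 20.8 and 17.5 CPM in 48 h monolayers, 11.2, 10.5 and 10.7 CPM in 48 h spheroids, 21.3, 16.03 and 22.6 CPM in 96 h monolayers and 7.65, 8.89 and 9.13 CPM in 96 h spheroids, 1.80-fold lower in spheroids at 48 h and 2.36-fold lower at 96 h.

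Adamts15 and Adamts8, neighbours on chromosome 9 and also proteoglycan-cutting enzymes, were higher in spheroids at both times. Adamts15 was at 12.6, 11.7 and 12.7 CPM in 48 h monolayers, 29.998, 36.6 and 34.7 CPM in 48 h spheroids, 10.7, 9.27 and 10.7 CPM in 96 h monolayers and 45.5, 47.1 and 46.2 CPM in 96 h spheroids. Adamts8 was at 7.75, 7.63 and 8.77 CPM in 48 h monolayers, 17.9, 18.99 and 20.9 CPM in 48 h spheroids, 4.24, 4.76 and 6.35 CPM in 96 h monolayers and 18.4, 19.1 and 21.5 CPM in 96 h spheroids. In both genes every spheroid library exceeded every monolayer library. The difference was 2.73-fold at 48 h (log2 1.45, SE 0.09, adjusted p = 2.16e-10) and 4.49-fold at 96 h (log2 2.17, SE 0.09, adjusted p = 3.19e-13) for Adamts15. For Adamts8 it was 2.39-fold at 48 h (log2 1.26, SE 0.13, adjusted p = 1.30e-07) and 3.83-fold at 96 h (log2 1.94, SE 0.14, adjusted p = 3.62e-10).

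Adamts9, a versican-cutting enzyme needed in development, changed sides with time. It was at 5.88, 6.80 and 4.65 CPM in 48 h monolayers, 12.96, 9.73 and 12.2 CPM in 48 h spheroids, 13.1, 12.5 and 10.3 CPM in 96 h monolayers and 7.42, 7.41 and 9.28 CPM in 96 h spheroids. The 48 h monolayers were the lowest group, and the 48 h spheroids and 96 h monolayers overlapped at the top. Spheroids were 2.02-fold higher at 48 h (log2 1.01, SE 0.17, adjusted p = 4.18e-05) and 1.49-fold lower at 96 h (log2 -0.57, SE 0.15, adjusted p = 0.00257). Its relative Adamts20 was low, at 1.08, 0.581 and 1.61 CPM in 48 h monolayers, 0.473, 0.347 and 0.445 CPM in 48 h spheroids, 0.400, 1.13 and 1.06 CPM in 96 h monolayers and 0.306, 0.247 and 0.223 CPM in 96 h spheroids. It was called lower in spheroids at 48 h (log2 -1.32, SE 0.50, adjusted p = 0.0302) and at 96 h (log2 -1.64, SE 0.54, adjusted p = 0.0113). The 48 h call was lost under 7 of 20 alternatives, among them leaving out any of 5 libraries (the first or the third 48 h monolayer or any 48 h spheroid; up to 0.165), in a range of 0.00917 to 0.256. The 96 h call was lost without the third 96 h monolayer library (0.0582), in a range of 0.00244 to 0.0582.

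Of the enzymes that trim procollagens, Adamts14 was lower in spheroids at both times, at 10.98, 7.80 and 7.25 CPM in 48 h monolayers, 2.65, 2.90 and 3.12 CPM in 48 h spheroids, 6.88, 8.27 and 6.97 CPM in 96 h monolayers and 0.535, 0.987 and 0.446 CPM in 96 h spheroids. The gap was 2.99-fold at 48 h (log2 -1.58, SE 0.21, adjusted p = 3.94e-06) and 11.1-fold at 96 h (log2 -3.48, SE 0.27, adjusted p = 1.23e-09). Adamts2, the most abundant of the 3 procollagen enzymes per transcript length, was called at neither time and fell with time in both formats, 2.14-fold in monolayers and 2.34-fold in spheroids. Adamts3 was 2.20-fold lower in spheroids at 48 h (log2 -1.14, SE 0.22, adjusted p = 2.29e-04) and did not pass the test at 96 h, where its libraries overlapped.

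Adamts6, known for its part in fibrillin microfibrils, was at 31.9, 30.7 and 21.3 CPM in 48 h monolayers, 2.18, 2.20 and 1.45 CPM in 48 h spheroids, 8.72, 11.1 and 11.1 CPM in 96 h monolayers and 1.07, 0.905 and 1.34 CPM in 96 h spheroids. Spheroids were 14.2-fold lower at 48 h (log2 -3.83, SE 0.20, adjusted p = 1.06e-11) and 9.15-fold lower at 96 h (log2 -3.19, SE 0.24, adjusted p = 7.96e-10), with no overlap. Adamts12, which can cut cartilage oligomeric matrix protein, was at 45.7, 37.4 and 21.4 CPM in 48 h monolayers, 17.3, 13.4 and 18.7 CPM in 48 h spheroids, 17.8, 18.7 and 21.3 CPM in 96 h monolayers and 5.96, 3.87 and 3.56 CPM in 96 h spheroids. It was 2.10-fold lower in spheroids at 48 h (log2 -1.07, SE 0.21, adjusted p = 2.26e-04) and 4.30-fold lower at 96 h (log2 -2.10, SE 0.26, adjusted p = 6.43e-07). Adamts16, whose row carries 3 symbols so that its counts may not be this gene's alone, was counted almost wholly in monolayers. It had 152 counts over the 3 libraries of the 48 h monolayers and 0 in the 48 h spheroids. With 3 counts over the group as the floor, its level there was 42.7-fold lower, with no allowance for counting error in the monolayers. Adamts16 passed the filter on low counts through the 48 h monolayers, so this difference is tied to the filter. At 96 h it had 26 counts in monolayers and 1 in spheroids, a ratio of 31.6 (exact 95% interval 5.19 to 1296, for counting error only). Of the rest, Adamts13, which cuts von Willebrand factor, was 1.97-fold higher in spheroids at 96 h, Adamts7 was 1.83-fold higher at 48 h, and Adamts10 was 1.70-fold lower at 96 h.

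**Figure D4:**
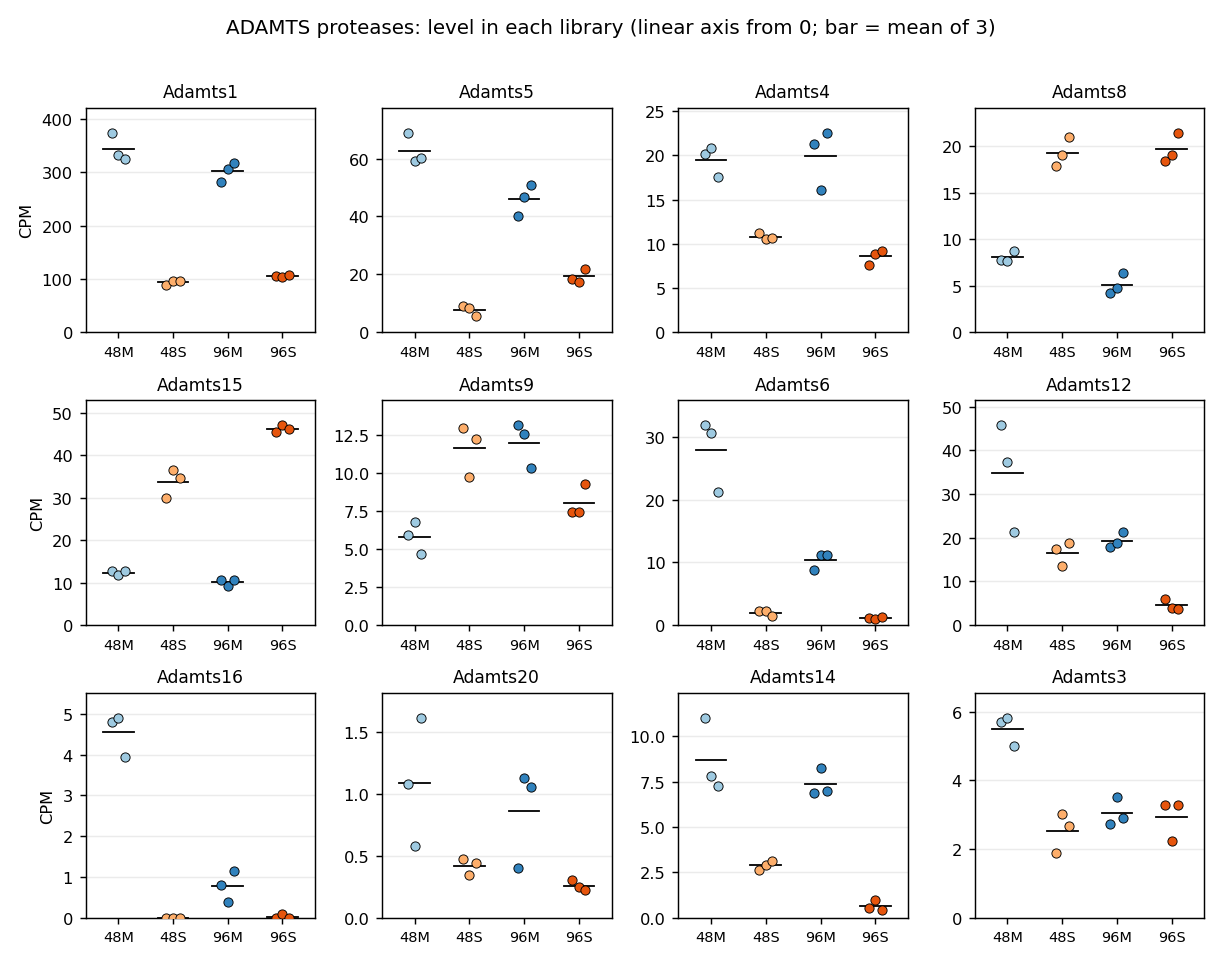
Each panel shows an ADAMTS protease, with the level in CPM in every library on a linear y axis from 0 and a bar at the mean of the 3 libraries of a group. Adamts1, Adamts4, Adamts5, Adamts6 and Adamts14 are lower in spheroids at both times, Adamts8 and Adamts15 are higher, and Adamts16 has no count in the 48 h spheroids.

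The TIMPs differed from one another, and their differences between formats were at 96 h more than at 48 h. Timp3, which binds to the matrix and inhibits ADAMs and ADAMTS proteases as well as MMPs, was at 1769, 1684 and 1552 CPM in 48 h monolayers, 1715, 1458 and 1697 CPM in 48 h spheroids, 446, 461 and 496 CPM in 96 h monolayers and 1847, 1638 and 1853 CPM in 96 h spheroids. The 96 h monolayers were below all other libraries, which overlapped. Timp3 did not pass the test at 48 h (log2 -0.04, SE 0.08, adjusted p = 0.693) and was 3.80-fold higher in spheroids at 96 h (log2 1.93, SE 0.08, adjusted p = 2.79e-13). It fell 3.57-fold with time in monolayers (log2 -1.83, SE 0.08, adjusted p = 2.60e-12) and did not pass the test with time in spheroids (log2 0.13, SE 0.08, adjusted p = 0.200).

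Timp1, which inhibits most secreted MMPs and few membrane-bound ones, was at 331, 396 and 452 CPM in 48 h monolayers, 335, 344 and 307 CPM in 48 h spheroids, 301, 314 and 482 CPM in 96 h monolayers and 122, 136 and 133 CPM in 96 h spheroids. Here the 96 h spheroids were below all other libraries. It was 2.81-fold lower in spheroids at 96 h (log2 -1.49, SE 0.14, adjusted p = 2.34e-08) and did not pass at 48 h (log2 -0.26, SE 0.14, adjusted p = 0.116), where leaving out the first 48 h monolayer library (adjusted p = 0.0299) or the third 96 h monolayer library (0.0199) made it pass, in a range over the alternatives of 0.0199 to 0.421. The third 96 h monolayer library held the highest Timp1 level of its group and the lowest Mmp3, Mmp10 and Mmp13 levels.

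Timp2, which inhibits MMPs and also takes part with Mmp14 in activating the proenzyme of Mmp2, varied least of the 3. It was at 278, 275 and 291 CPM in 48 h monolayers, 309.9, 315 and 323 CPM in 48 h spheroids, 341, 378 and 383 CPM in 96 h monolayers and 311, 307 and 311 CPM in 96 h spheroids. The formats did not overlap at either time, with spheroids 1.12-fold higher at 48 h (log2 0.17, SE 0.06, adjusted p = 0.0277) and 1.19-fold lower at 96 h (log2 -0.25, SE 0.06, adjusted p = 0.00143). The call at 48 h was lost under 7 of 21 alternatives, among them DESeq2's Wald test (adjusted p = 0.0611) and leaving out the second 48 h monolayer (0.0917), the second 48 h spheroid (0.0522) or the third 48 h spheroid library (0.0944), in a range of 0.000270 to 0.140. Timp4 had 4 counts in all 12 libraries together.

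Per transcript length the order of the TIMPs changed. Timp1, Timp3 and Timp2 held 51.6%, 39.7% and 8.68% of the summed TIMP level in 48 h monolayers and 47.1%, 42.2% and 10.6% in 48 h spheroids. In 96 h monolayers Timp1 held 68.1%, with Timp2 and Timp3 at 106 ± 4.98 and 104 ± 4.99 FPKM within their spread of each other. In 96 h spheroids Timp3 led with 61.3%, ahead of Timp1 with 24.8%.

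Summed over each class, secreted MMPs stood at 364 ± 17.4 FPKM in 48 h monolayers, 435 ± 5.98 in 48 h spheroids, 313 ± 37.8 in 96 h monolayers and 156 ± 3.75 in 96 h spheroids (mean ± SD, n = 3). Their sum was 1.195 times the monolayer value at 48 h and 0.497 times at 96 h, and the formats did not overlap at either time. The ADAMTS sum was 126 ± 10.7 and 74.4 ± 3.85 FPKM in monolayers and spheroids at 48 h and 112 ± 4.19 and 66.1 ± 0.502 at 96 h, 0.592 and 0.590 times the monolayer value. Membrane-bound MMPs summed to 0.836 times and ADAMs to 1.05 times the monolayer value at 48 h, and to 0.861 and 0.840 times at 96 h. The TIMP sum was 830 ± 32.6 and 819 ± 23.4 FPKM at 48 h and 659 ± 130 and 609.9 ± 20.2 FPKM at 96 h, differences within the spread of the libraries. Summed as CPM, which weights long transcripts more and uses TMM-adjusted library sizes, the TIMPs were 1.85 times the monolayer value at 96 h. The ratio of summed secreted MMPs to summed TIMPs was 0.445, 0.425 and 0.447 in the 48 h monolayers, 0.509, 0.553 and 0.534 in the 48 h spheroids, 0.613, 0.517 and 0.347 in the 96 h monolayers and 0.245, 0.271 and 0.250 in the 96 h spheroids. At 48 h the spheroids lay above the monolayers and at 96 h below them, without overlap, and the 96 h monolayers spread over the range of the 48 h groups. With 3 libraries against 3, an exact permutation test cannot give a 2-sided p below 0.1, so these sums are given as values. They are sums of RNA levels and say nothing of protein or activity.

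**Figure D5:**
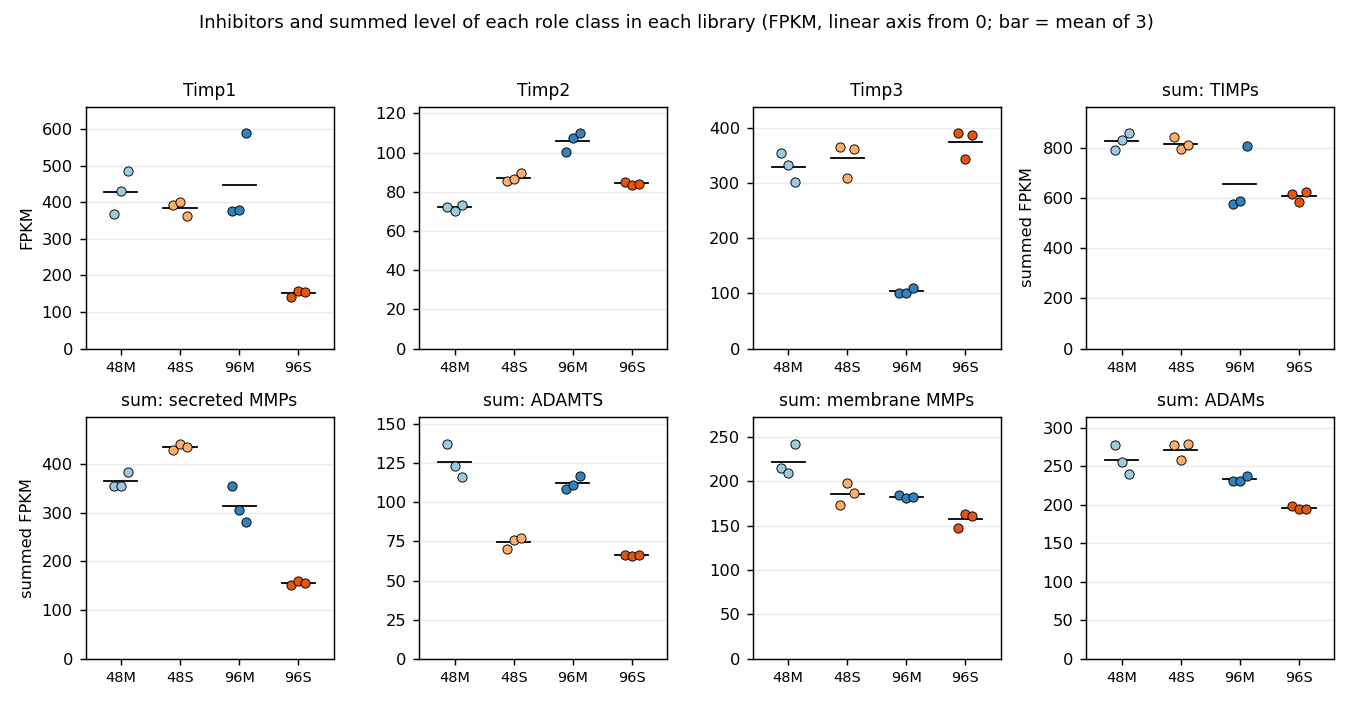
Panels show the TIMP levels in FPKM and the summed FPKM of classes in every library, on linear y axes from 0 with a bar at the mean of 3. Timp3 is low in the 96 h monolayers, Timp1 is low in the 96 h spheroids, and the summed secreted MMPs are lowest in the 96 h spheroids.

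A list of 40 other genes of the pathway held proenzyme-activating convertases, the plasminogen activator system, cofactors and further inhibitors. Of the 33 tested, 14 were higher and 13 lower in spheroids at 48 h, against 31.6% and 26.4% of all tested genes, and 11 were higher and 18 lower at 96 h, against 37.3% and 36.5%, with medians of 0.03 and -0.30. Plau, the urokinase that makes plasmin and so can activate MMP proenzymes, was at 188 ± 26.998 CPM in 96 h monolayers and 26.5 ± 0.338 CPM in 96 h spheroids (mean ± SD, n = 3), 7.09-fold lower (log2 -2.83, SE 0.10, adjusted p = 1.04e-14). It was also lower in spheroids at 48 h. The proprotein convertases, which cut the propeptides of many ADAMs and membrane-bound MMPs, were split at 96 h, with Pcsk5 7.02-fold lower in spheroids (log2 -2.81, SE 0.14, adjusted p = 3.09e-12) and Pcsk6 8.28-fold higher (log2 3.05, SE 0.10, adjusted p = 8.30e-15). Tspan15, a tetraspanin partner of Adam10, was 6.14-fold higher, from 4.66 ± 0.806 to 28.3 ± 1.14 CPM (log2 2.62, SE 0.11, adjusted p = 3.49e-13). Papln, an ADAMTS-like matrix protein, was 5.34-fold higher, from 30.3 ± 7.34 to 162 ± 6.35 CPM (log2 2.42, SE 0.14, adjusted p = 1.48e-11).

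The cells carried epithelial markers in all groups, and markers of other cells also differed between groups. The counts of called markers stand against 31.6% higher and 26.4% lower of all tested genes at 48 h and 37.3% and 36.5% at 96 h. Of 12 epithelial markers, 4 were higher and 7 lower in spheroids at 48 h, and 10 were higher and 1 lower at 96 h. All 12 fell with time in monolayers, against 31.3% of all tested genes. Summed over these 12 markers, the level ranged from 6384 to 7235 FPKM in 48M, 4898 to 5234 in 48S, 3061 to 3185 in 96M and 4418 to 4676 in 96S. For 11 fibroblast markers it ranged from 1572 to 1727, 661 to 726, 518 to 628 and 209.8 to 221 FPKM in the same order, lower in spheroids at both times, as were the ADAMTS sum and Adam12, although 5 of the 11 genes were higher and 5 lower at 48 h, and 4 were higher and 6 lower at 96 h. For 8 endothelial markers it ranged from 16.1 to 21.0, 18.1 to 24.4, 31.0 to 31.9 and 8.92 to 9.38 FPKM, highest in 96 h monolayers and lowest in 96 h spheroids, as Mmp10, Mmp11, Mmp12 and Mmp13 were, with 1 of the 8 genes higher and 3 lower in spheroids at 48 h, and 1 higher and 7 lower at 96 h. For 13 markers of macrophages and other immune cells it ranged from 48.3 to 54.2, 227 to 241, 113 to 145 and 336 to 397 FPKM, and Cd14 made up most of it except in 96M, where Cd14 averaged 45.7, S100a8 41.7 and Cd68 27.6 FPKM. Of the 6 tested, 3 were higher and none lower in spheroids at 48 h, and 2 were higher and 3 lower at 96 h. The macrophage markers Cd68 (means of 2.38, 5.13, 27.6 and 5.24 FPKM in the same order) and Lyz2 (4.82, 5.26, 8.93 and 1.84 FPKM) were highest in 96M, as Mmp10, Mmp11, Mmp12 and Mmp13 were. Cd68 and Lyz2 were picked out of the 13 markers and do not stand for the list. Ptprc had a mean of at most 0.0933 FPKM in any group, and the sum over the 13 markers was highest in 96S and not in 96M. For 6 adipocyte markers it ranged from 50.3 to 57.2, 459 to 514, 92.3 to 139.97 and 78.3 to 85.0 FPKM, nearly all of it Fabp4, with Adipoq at most 0.28 FPKM on average. The part of these cells in the protease and TIMP levels was not tested. In such bulk samples fewer cells of a type and less RNA per cell cannot be told apart.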

How the data were processed

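RNA sequencing libraries of 12 cultures were analysed as deposited. Per the submitters' processing notes, the build was mm9 and the tools were RSEM 1.2.30, Bowtie 1.0.1 and bcl2fastq 2.15.0, with no strand setting recorded in the labels. The authors deposited RSEM's estimated counts (expected counts), already whole numbers in the file, and log2(FPKM + 1) values, both per gene. RSEM divides reads between similar genes, so near-identical copies are uncertain.

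Counts were tested with edgeR 4.0.16 (R 4.3.3): filterByExpr (minimum count 10, total 15), TMM scaling, a quasi-likelihood fit over all 4 groups and Benjamini-Hochberg adjustment over 13951 genes at 0.05. The fit was tested on simulated counts in which a small part of the genes changed, and only in the 48 h spheroids. Far more genes were called in these data, so that run does not show how the fit behaves here. CPM values use TMM-adjusted library sizes, and FPKM values are the deposited log2 values converted back. TMM factors lay between 0.923 and 1.07, and totals between 7674105 and 13554497. Alternatives used limma 3.58.1, DESeq2 1.42.0, other scalings and filters, a replicate block and leaving out each library. Genes called over 2-fold changed at 48 h or 96 h were named in each class, up to 10 a class, with the TIMPs and members of opposite calls. Of the pathway list, up to 6 genes of mean log2 CPM of at least 3 with the largest called change at 96 h were named, apart from 1 that is not reported here. The members and lists were chosen with earlier results of these data known. Splitting ADAMs by their active-site sequence was not done here. Promoter windows came from RefSeq's annotation of GRCm38.p6 and were not joined to the files' coordinates. Replicates within a group differed by more than sampling noise, with a chi-square of 2.48 to 18.3 per degree of freedom.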

Additional observations from a re-analysis of the deposited data

Results flagged for a closer look

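The difference between spheroids and monolayers was not the same at 96 h as at 48 h for 33 members, by edgeR's test of the interaction term at an adjusted p of 0.05, against 53.3% of all tested genes. The values below are the log2 fold change at 96 h minus that at 48 h, with 3 libraries in each group.

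Among secreted MMPs the term was -4.15 for Mmp13, -3.71 for Mmp10, -3.32 for Mmp27, -2.65 for Mmp19, -1.83 for Mmp28, -1.48 for Mmp8, -1.29 for Mmp3, -1.28 for Mmp2, -1.25 for Mmp12, -1.08 for Mmp11 and -0.86 for Mmp9. All of these 11 were below 0, so spheroids stood lower against monolayers at 96 h than at 48 h, although Mmp9 was at 0.15 in limma on log2(FPKM + 1). For Mmp27 the sign was tied to the filter on low counts, which it passed through the 48 h spheroids.

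Among ADAMTS proteases it was -1.89 for Adamts14, -1.58 for Adamts9, -1.07 for Adamts7 and -1.03 for Adamts12. It was above 0 for Adamts5 (1.76), Adamts3 (1.10), Adamts13 (0.82), Adamts15 (0.72), Adamts8 (0.68) and Adamts1 (0.35).

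Among membrane-bound members it was above 0 for Adam8 (0.84), Mmp23 (0.83) and Mmp15 (0.45). It was below 0 for Adam11 (-2.61), Adam23 (-1.80), Adam19 (-0.86), Adam15 (-0.72), Adam33 (-0.71) and Adam17 (-0.33). Among TIMPs it was 1.97 for Timp3, -1.23 for Timp1 and -0.41 for Timp2. With total-count scaling the median of all genes in this term shifted by -0.19, and Mmp15 (0.45), Mmp23 (0.83) and Adamts1 (0.35 in the main fit) lost their calls under it. The call for Adam33 was lost under 10 of 20 alternatives, 7 of them leaving out 1 library (48M replicate 2 or 3, 48S replicate 2, 96M replicate 1 or 2, or 96S replicate 2 or 3), at adjusted p-values in a range of 0.0126 to 0.1003. That for Mmp23 was also lost without 48M replicate 3, 48S replicate 1, 96M replicate 1 or 96S replicate 3 and in limma on log2(FPKM + 1), in a range of 0.0135 to 0.0976. In limma Mmp15 (0.101), Adamts1 (0.195) and Adamts8 (0.0763) lost theirs, as did Adamts12 (0.0776), which also lost it without 96S replicate 3 (0.0524).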

How the results depend on the processing

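Counts of members called were within 1.5 times the main count under the alternatives run, except the 5 members rising with time in spheroids, which ranged from 3 to 6 when 1 library was left out. Of 4138 member values under alternatives, 3980 kept direction and side of the threshold, 111 lost a call, 22 gained one and 25 changed sign. The sign changes were, apart from Mmp9's interaction, in values with no call. Total-count scaling shifted the median of all genes by 0.11 at 48 h and 0.17 with time in monolayers.

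With total-count scaling Timp1 with time in monolayers was 0.0686, and at 48 h Timp3 was 0.0689 and Adamts2 0.0731. With limma on log2(FPKM + 1) the same values were 0.0455, 0.0673 and 0.0561, and the interaction of Mmp9 was 0.15. Adam15 at 48 h was -0.00945 with DESeq2-type size factors, -0.00959 with DESeq2 and -0.00609 with only the groups of the contrast. When 1 library was left out, ranges were -0.35 to 0.0199 for Timp1 with time in monolayers, and at 48 h -0.0933 to 0.0322 for Timp3, -0.0385 to 0.0881 for Adam15, -0.0922 to 0.0447 for Adamts2 and -0.0415 to 0.27 for Mmp13. At 96 h they were -0.00568 to 0.24 for Mmp23, -0.12 to 0.12 for Adamts3, -0.38 to 0.24 for Mmp27 and -0.22 to 0.24 for Mmp8. The cause of these changes was not tested.

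Class sums as CPM in place of FPKM gave log2 ratios of spheroids to monolayers of 0.89 for TIMPs at 96 h, -0.13 for ADAMs and -0.97 for ADAMTS proteases at 48 h, and -0.0362 for membrane-bound MMPs and -0.79 for secreted MMPs at 96 h. CPM weights genes by transcript length and uses TMM-adjusted library sizes, while FPKM values are as deposited. Both differences set these sums apart by construction, and their parts were not separated.

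Same-numbered samples showed no shared deviation, with correlations between -0.11 and 0.09 over 18 pairs. With 3 libraries per group these values cannot settle whether the numbers mark shared preparations, which the labels do not say. With the replicate block, 14 members were higher and 19 lower at 48 h, 11 and 29 at 96 h, 11 and 24 with time in monolayers, 5 and 27 with time in spheroids, and 10 and 23 in the interaction. Depth limits Adam11, Adam22, Adamts16, Adamts20, Mmp17, Mmp25, Mmp27 and Mmp28, whose levels approach the floor of 3 counts.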
